A study of Mus musculus with 12 samples.

Results

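The core clock and clock output genes studied here are Clock, Npas2, Arntl, Per1, Per2, Cry1, Cry2, Ciart, Dbp and Nfil3. They were taken by symbol, as probe sets annotated to exactly 1 gene, and 9 of the 10 genes were measured in this way, each by 1 probe set, among 22180 genes in all. Per2 is not reported, because its probe set is also annotated to another gene, and a second probe set of Cry2 was left out for the same reason. Liver RNA from male C57BL6/J mice aged 8 to 10 weeks was hybridised to 12 arrays, 1 per sample. All mice received an Ad5 adenovirus by tail vein, Ad-GFP in the control group (replicates 1 to 6) and Ad-hApoF, which carries human apolipoprotein F, in the other (replicates 7 to 12). They were kept at 22 °C in equal light and dark phases of 12 h, and livers were taken on day 4, at 3 pm and after 6 h of fasting. The sources used here do not give the promoter of the viral constructs, the viral dose or the hour of lights-on, and uninjected livers were not analysed here. The labels do not state array by array that each came from its own mouse, so the p-values below describe variation among arrays, which may be technical.

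The mammalian clock is a transcriptional feedback loop that runs in nearly every cell, hepatocytes included. CLOCK, or its paralog NPAS2, pairs with BMAL1, the product of Arntl, and the dimer binds E-boxes in the genes of its own repressors, the PER and CRY proteins, and in output genes such as Dbp and Ciart. A second loop acts through ROR elements, where ROR proteins activate and REV-ERB proteins repress Arntl and Nfil3, and another loop acts through D-boxes, which DBP activates and NFIL3 represses. In mouse liver the transcripts of Arntl and Nfil3 therefore run at a different phase of the day from those of Dbp, Per1 and Ciart. Every sample here was taken at the same clock hour, so the data hold levels at 1 time and no rhythm.

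Stretches before the starts of 6 of these genes are shown because the loops described above act through short motifs, which not every stretch holds. They are the 250 bases before an annotated start, from RefSeq on GRCm38.p6, written 5′ to 3′ on the strand of the gene, and capitals mark an E-box, a D-box or the core of a ROR element.
Ciart, chr3:95882229-95882478, minus strand: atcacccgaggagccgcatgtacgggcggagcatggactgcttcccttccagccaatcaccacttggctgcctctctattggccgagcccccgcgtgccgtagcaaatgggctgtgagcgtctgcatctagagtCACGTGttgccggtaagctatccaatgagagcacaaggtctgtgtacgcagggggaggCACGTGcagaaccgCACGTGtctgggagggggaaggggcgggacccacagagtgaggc
Per1, chr11:69098699-69098948, plus strand: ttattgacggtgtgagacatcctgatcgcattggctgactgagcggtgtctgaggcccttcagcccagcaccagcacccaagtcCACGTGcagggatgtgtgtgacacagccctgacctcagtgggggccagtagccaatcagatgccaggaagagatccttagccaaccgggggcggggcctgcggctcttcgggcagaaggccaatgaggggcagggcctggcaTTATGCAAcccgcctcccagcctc
Cry1, chr10:85185055-85185304, minus strand: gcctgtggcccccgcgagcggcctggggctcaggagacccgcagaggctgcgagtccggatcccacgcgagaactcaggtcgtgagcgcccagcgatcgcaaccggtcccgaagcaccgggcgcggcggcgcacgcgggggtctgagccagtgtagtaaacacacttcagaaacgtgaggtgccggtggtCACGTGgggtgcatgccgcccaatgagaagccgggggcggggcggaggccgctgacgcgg
Dbp, chr7:45704997-45705246, plus strand: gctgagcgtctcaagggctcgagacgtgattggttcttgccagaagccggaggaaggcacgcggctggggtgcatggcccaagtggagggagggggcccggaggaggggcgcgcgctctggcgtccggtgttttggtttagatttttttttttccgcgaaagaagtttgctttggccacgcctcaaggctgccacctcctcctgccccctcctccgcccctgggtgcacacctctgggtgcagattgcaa
Nfil3, chr13:52981040-52981289, minus strand: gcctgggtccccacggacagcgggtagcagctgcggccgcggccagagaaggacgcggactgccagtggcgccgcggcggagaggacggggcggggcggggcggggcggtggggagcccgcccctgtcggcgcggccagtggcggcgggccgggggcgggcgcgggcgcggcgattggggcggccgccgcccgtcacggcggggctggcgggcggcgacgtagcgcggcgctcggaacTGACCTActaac
Clock, chr5:76304793-76305042, minus strand: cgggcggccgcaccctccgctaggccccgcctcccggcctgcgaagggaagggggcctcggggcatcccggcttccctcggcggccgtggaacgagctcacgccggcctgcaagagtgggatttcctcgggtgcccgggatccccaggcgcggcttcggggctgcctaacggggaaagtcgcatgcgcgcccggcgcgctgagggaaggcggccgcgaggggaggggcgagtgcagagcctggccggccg

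The E-box CACGTG, which reads the same on both strands, occurs 3 times before the Ciart start, with first bases 116, 58 and 44 bases before it. It occurs once before Cry1 (60 bases before the start) and once before the more upstream of the 2 Per1 starts (166 bases). In all 32851 RefSeq windows of this length 6.02% hold it. The D-box form TTATGNAA, searched on both strands, stands 24 bases before that Per1 start and is found in 3.07% of the windows. The ROR element core TAGGTCA, searched on both strands and held by 2.23% of the windows, lies 12 bases before the Nfil3 start, on the opposite strand (TGACCTA as printed). A copy lies just after the second annotated start of Arntl, at chr7:113207529-113207558 on the plus strand, where capitals mark the core: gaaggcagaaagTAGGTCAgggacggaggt. Dbp, Clock, Npas2 and Cry2 had none of these letters in their windows. Clock has 3 annotated starts, and only the window of the most upstream is printed. The cAMP response element TGACGTCA (1.55% of all windows) was in none of the stretches. The motifs overlapped nowhere, and a match describes letters, not binding.

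Clock alone among the 9 measured genes passed the test, and it was lower in livers given hApoF. Its level (probe set 17448960, log2 RMA value) was 9.93, 9.92, 9.98, 9.82, 9.93 and 10.13 on GFP arrays 1 to 6 and 9.52, 9.82, 9.25, 9.35, 9.79 and 9.64 on hApoF arrays 7 to 12. The groups did not overlap, but the lowest GFP array (GFP 4) exceeded the highest hApoF array (hApoF 8) by only 0.0020. Means were 9.95 ± 0.10 (SD, n = 6) and 9.56 ± 0.23 (n = 6), a log2 change of -0.39 (SE 0.10, 95% interval -0.60 to -0.18), which is 1.31-fold lower (limma with Benjamini-Hochberg over all genes, adjusted p = 0.027). An exact two-sided permutation test over all assignments of 6 of the 12 arrays gave p = 0.0022, the smallest it can give. The call was lost when GFP 2, GFP 3, GFP 6, hApoF 7, hApoF 9 or hApoF 10 was left out (limma adjusted p up to 0.069, without GFP 6), with log2 changes from -0.44 to -0.33 over the 12 omissions. The count of 1 lower and 0 higher among 9 genes, 11.1% called, stands beside 6.91% called in either direction 4.8% called lower and 2.11% called higher among all genes, with 4.98% of all genes not overlapping between groups. In liver RNA of mixed cells, fewer cells of a type and less RNA per cell cannot be told apart.

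**Figure D1:**
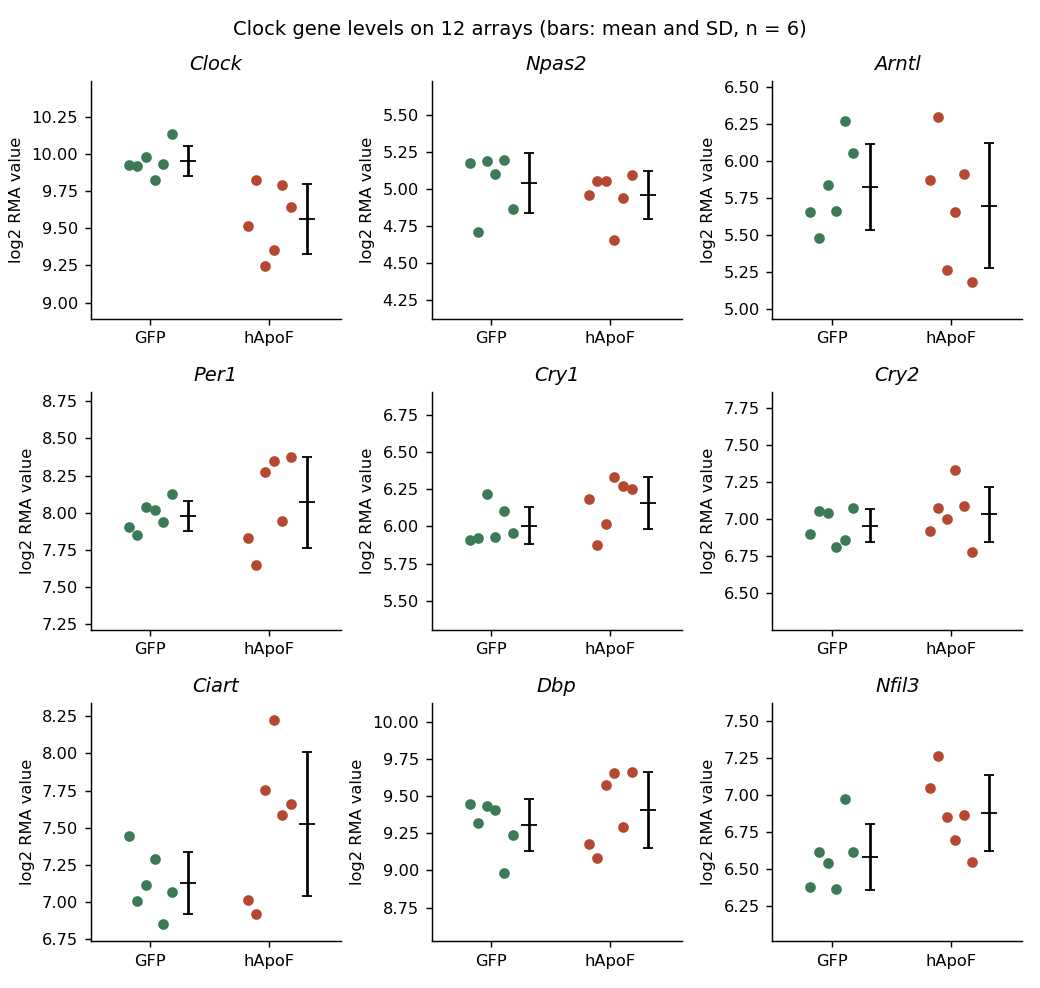
Levels of the 9 clock genes on each array (y axis, log2 RMA value, same span of 1.6 in each panel) by group (x axis); points are arrays in replicate order and bars are the mean and SD of 6. Only in the Clock panel do the groups separate. The hApoF points are more widely scattered than the GFP points in all panels but that of Npas2, most so for Per1, Ciart and Clock.

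The genes of the paralog and of the partner of CLOCK did not pass. Npas2, its paralog (probe set 17212087), had levels of 5.17, 4.71, 5.19, 5.10, 5.19 and 4.86 in GFP and 4.96, 5.06, 5.05, 4.66, 4.94 and 5.09 in hApoF livers. The ranges overlapped almost entirely, and the mean difference was -0.08 (95% interval -0.29 to 0.14, limma adjusted p = 0.706). Npas2 was also the dimmest of the 9, the single one below the median level of all genes. Arntl (probe set 17481960), which encodes BMAL1, read 5.66, 5.48, 5.84, 5.66, 6.27 and 6.06 in GFP and 5.87, 6.29, 5.27, 5.66, 5.91 and 5.18 in hApoF livers. It differed by -0.13 (95% interval -0.51 to 0.25, limma adjusted p = 0.726), with hApoF arrays both above and below every GFP array.

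Whether Clock changed differently from its paralog and its partner was tested directly, as the log2 difference of both genes on each array. Of the 4 gene pairs intended, that of Per1 and Per2 could not be formed. Relative to Npas2, Clock differed by -0.31 (exact permutation p = 0.050, adjusted p = 0.149 over the 3 pairs), and 4 of 6 hApoF arrays lay below every GFP array. Relative to Arntl, the difference was -0.26 (exact permutation, adjusted p = 0.240). Neither difference passed after adjustment, so an unequal change of Clock and its relatives was not established at 6 arrays per group. The Cry pair differed by 0.07 (exact permutation, adjusted p = 0.537).

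Among the repressors, Per1 and both Cry genes did not pass. Per1 (probe set 17251527), a light- and hormone-inducible repressor of the dimer, had levels of 7.90, 7.85, 8.04, 8.02, 7.94 and 8.13 in GFP and 7.83, 7.65, 8.28, 8.35, 7.94 and 8.38 in hApoF livers. The mean difference was 0.09 (95% interval -0.16 to 0.34, limma adjusted p = 0.716), yet the hApoF values lay on both sides of the GFP range, 3 above it and 2 below. Cry1 (probe set 17243644), a flavoprotein-like repressor that acts with PER, read 5.91, 5.92, 6.22, 5.93, 6.11 and 5.95 in GFP and 6.18, 5.87, 6.02, 6.33, 6.28 and 6.25 in hApoF livers. Its difference of 0.15 (95% interval -0.04 to 0.34) had a limma adjusted p of 0.362. Cry2 (probe set 17388389), its paralog, ranged from 6.81 to 7.07 in GFP and from 6.78 to 7.33 in hApoF livers, a difference of 0.08 (95% interval -0.11 to 0.27, limma adjusted p = 0.679).

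Ciart (probe set 17407934), the gene of the CLOCK-BMAL1 repressor also called CHRONO, had levels of 7.45, 7.01, 7.11, 7.29, 6.85 and 7.07 in GFP and 7.01, 6.92, 7.75, 8.23, 7.58 and 7.66 in hApoF livers. hApoF 9, 10, 11 and 12 were above every GFP array, while hApoF 7 and 8 lay inside the GFP range. The mean difference of 0.40 had the same size as that of Clock with a wider interval (0.0045 to 0.79, limma unadjusted p = 0.048, adjusted p = 0.230, exact permutation p = 0.095).

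The output regulators Dbp and Nfil3, which act in opposite ways on D-boxes, did not pass either. Dbp (probe set 17477979) read 9.45, 9.32, 9.44, 9.41, 8.98 and 9.24 in GFP and 9.18, 9.09, 9.58, 9.65, 9.29 and 9.67 in hApoF livers, a difference of 0.10 (95% interval -0.14 to 0.35, limma adjusted p = 0.661). Nfil3 (probe set 17292634), the D-box repressor, read 6.38, 6.61, 6.54, 6.37, 6.97 and 6.61 in GFP and 7.05, 7.26, 6.85, 6.69, 6.87 and 6.55 in hApoF livers. Its mean was higher by 0.30 (95% interval 0.03 to 0.56, limma unadjusted p = 0.030, adjusted p = 0.179, exact permutation p = 0.061). Clock, Nfil3 and Ciart had an unadjusted p under 0.05, 3 of 9 genes, against 21.3% of all genes. The median log2 change of the 9 genes was 0.09, beside 0.03 over all genes.

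**Figure D2:**
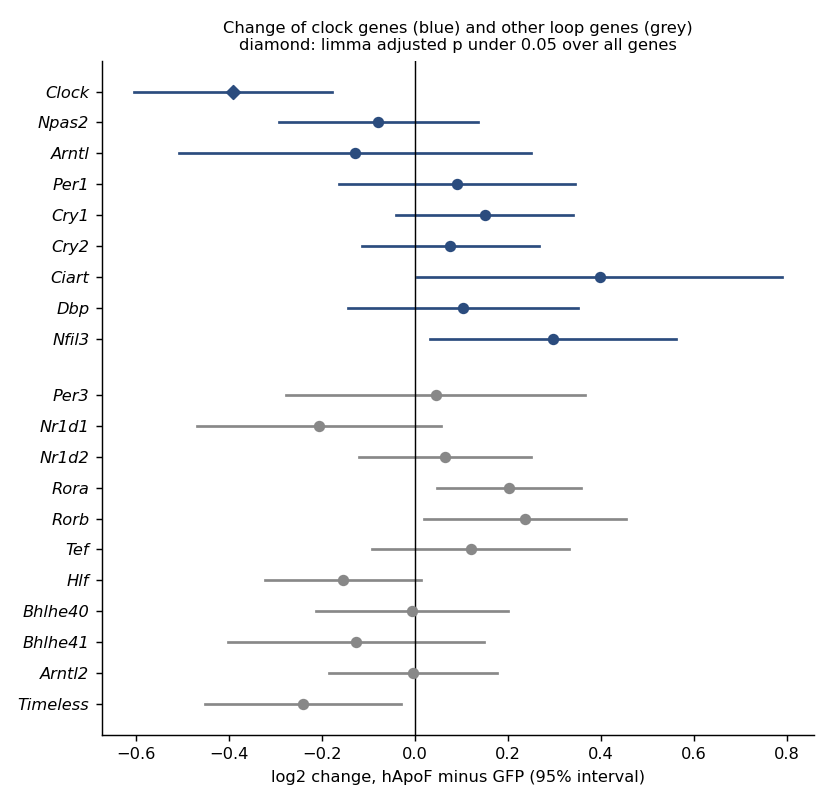
Log2 change, hApoF minus GFP (x axis), with its 95% interval for the 9 clock genes (blue) and 11 other genes of the core loops (grey), 1 row per gene. Clock, at -0.39, carries the single diamond, which marks an adjusted p under 0.05, and the intervals of Ciart, Nfil3, Rora, Rorb and Timeless also leave out 0 without passing the adjusted test.

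The values above show 1 feature that the comparison of means does not: on both sides of the comparison, arrays high in Dbp were low in Nfil3 and Arntl. GFP 5, the GFP array with the lowest Dbp (8.98), had the highest Nfil3 (6.97) and Arntl (6.27) of its group and the lowest Ciart (6.85). hApoF 8 held the same place in its group, with the lowest Dbp (9.09), Ciart (6.92) and Per1 (7.65) and the highest Nfil3 (7.26) and Arntl (6.29). hApoF 12 was at the other end, with the highest Dbp (9.67) and Per1 (8.38) and the lowest Nfil3 (6.55) and Arntl (5.18).

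These relations were measured as correlations over the 12 arrays after each group's mean was removed, for all 36 pairs of the 9 genes. P-values came from 100000 two-sided permutations within groups, and were adjusted over the 36 pairs. Dbp and Nfil3 had the closest relation, with Pearson r = -0.92 (permutation p = 3e-05, adjusted p = 0.0011) and Spearman rho = -0.87 (permutation p = 7e-05, adjusted p = 0.0025). It was -0.94 within GFP (exact permutation p = 0.0097, n = 6) and -0.92 within hApoF (exact permutation p = 0.0014, n = 6), and -0.83 without GFP 5 and hApoF 8, the arrays farthest from the median in Dbp. Over the omission of each array in turn r stayed between -0.95 and -0.89, and the permutation test passed in all 12.

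**Figure D3:**
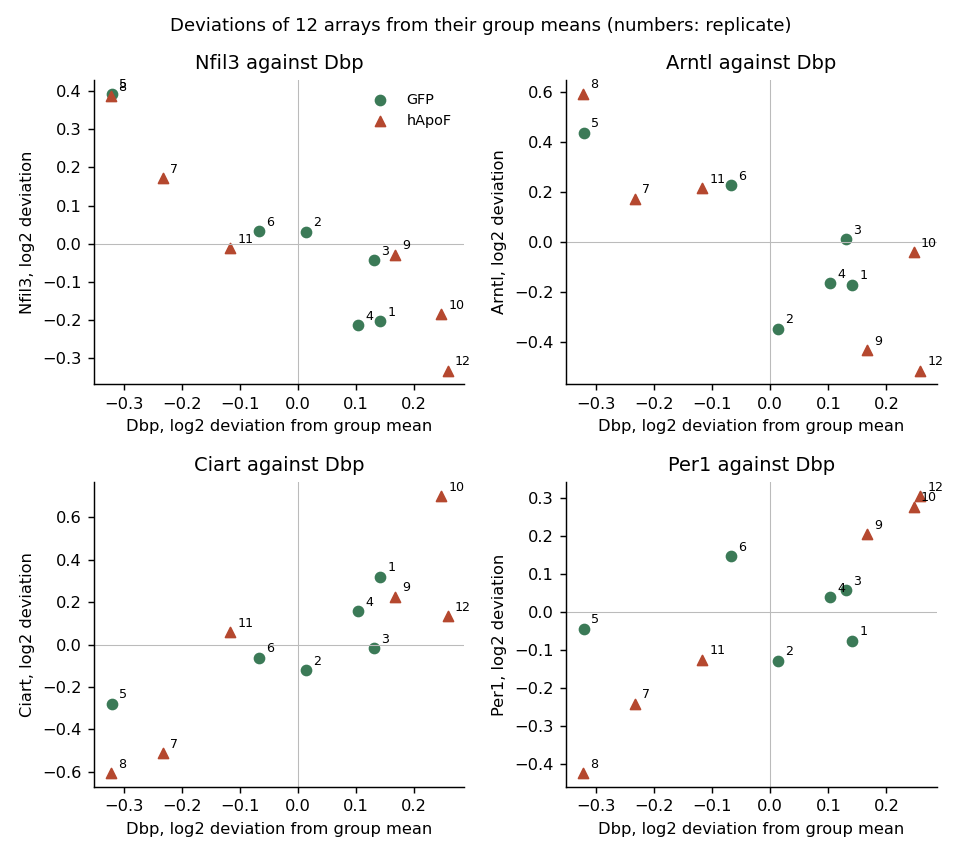
Deviation of each array from its group mean in Nfil3, Arntl, Ciart and Per1 (y axes, log2) against that in Dbp (x axes, log2), with GFP as circles, hApoF as triangles and replicate numbers beside the points. Nfil3 (r = -0.92) and Arntl (r = -0.85) fall from left to right, Ciart rises (r = 0.85), and Per1 follows Dbp closely among the triangles (r = 0.996) but not among the circles (r = 0.04).

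Dbp and Ciart, both driven by the CLOCK-BMAL1 dimer, varied together (r = 0.85, permutation p = 0.00061, adjusted p = 0.011; rho = 0.85, permutation p = 0.0013, adjusted p = 0.024). The value was 0.81 in GFP and 0.89 in hApoF livers, and 0.80 without GFP 5 and hApoF 8, and the relation passed in 11 of the 12 omissions (permutation adjusted p = 0.060 without hApoF 10). Dbp ran against Arntl (r = -0.85, permutation p = 0.0017, adjusted p = 0.021; rho = -0.84, permutation p = 0.0021, adjusted p = 0.025), with -0.78 in GFP and -0.88 in hApoF livers and -0.75 without hApoF 8 and hApoF 12. That relation passed in 9 of 12 omissions and was lost without GFP 5, hApoF 8 or hApoF 11 (permutation adjusted p up to 0.115).

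Nfil3 ran with Arntl, named with it above in the ROR element loop (r = 0.80, permutation p = 0.0044, adjusted p = 0.031). Their rho was 0.76 (permutation p = 0.0094, adjusted p = 0.068), and r was 0.62 without hApoF 8 and hApoF 12. Nfil3 ran against Ciart (r = -0.80, permutation p = 0.0040, adjusted p = 0.031). Here rho was -0.82 (permutation p = 0.0030, adjusted p = 0.027), and r was -0.71 without GFP 5 and hApoF 8. Each of these relations passed in 6 of the 12 omissions. Nfil3 did not pass with Clock (r = 0.33), Npas2 (0.10) or Cry1 (-0.29). In all, 5 of 36 pairs passed with r and 4 with rho. The number with r went down to 2 without GFP 5, hApoF 8 or hApoF 11 and to 3 without GFP 4 or hApoF 7.

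**Figure D4:**
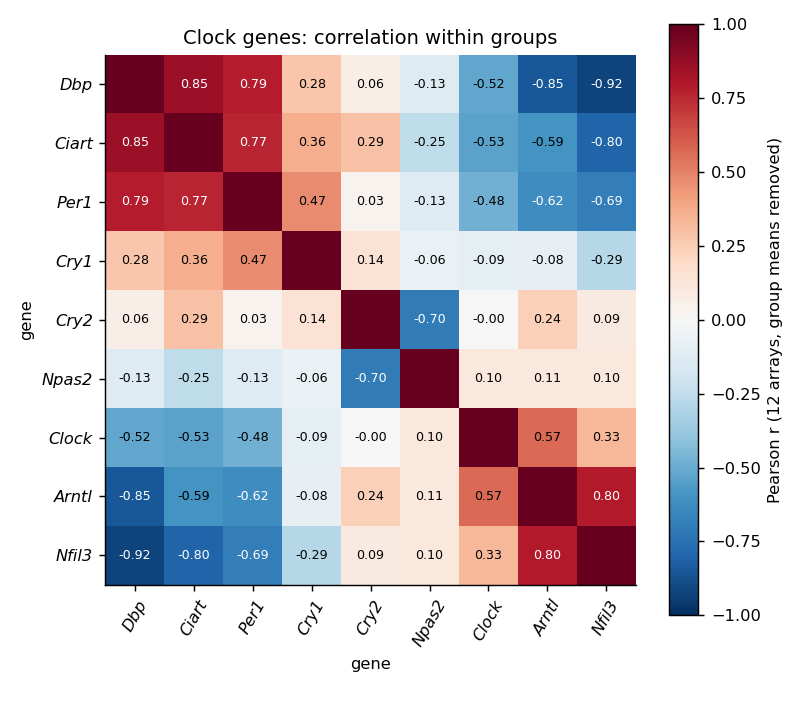
Pearson r between the 9 clock genes over 12 arrays with group means removed (colour scale from -1 to 1, value in each cell, a row and a column per gene). Dbp, Ciart and Per1 form a positive block that is negative against Arntl and Nfil3. No pair with Per1 passed, and within GFP alone its r was 0.04 with Dbp and 0.45 with Arntl. Clock has values from -0.53 (Ciart) to 0.57 (Arntl), none of which passed. Cry1, Cry2 and Npas2 show weaker values except the -0.70 between Npas2 and Cry2.

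Per1 did not pass over all arrays, and its values differed between the groups. Its r with Dbp was 0.996 in hApoF livers (exact permutation p = 0.0014, n = 6) and 0.04 in GFP livers (exact permutation p = 0.935, n = 6), with 0.79 overall (permutation p = 0.021, adjusted p = 0.095; rho = 0.80, permutation adjusted p = 0.214). Without hApoF 8 and hApoF 12, the arrays farthest from the median in Per1, the overall r was 0.64. With Arntl, Per1 gave -0.90 in hApoF livers (exact permutation p = 0.018, n = 6) and 0.45 in GFP livers (exact permutation p = 0.361, n = 6). With Nfil3, Per1 gave -0.93 in hApoF and -0.11 in GFP livers (exact permutation p = 0.0014 and 0.842). With Ciart, Per1 gave 0.88 in hApoF and -0.0032 in GFP livers (exact permutation p = 0.015 and 0.993). Per1 spanned only 0.27 on the log2 scale in GFP livers and 0.73 in hApoF livers, and the difference between these correlations was not tested.

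Cry1 showed no such relation. Its promoter window holds an E-box and that of Dbp holds none, and a link between motif and correlation was not tested. With Dbp, Cry1 had r = 0.28 (permutation adjusted p = 0.745, rho = 0.15), and -0.29 without GFP 3 and hApoF 8. With Ciart, Cry1 had r = 0.36 (permutation adjusted p = 0.710, rho = 0.12), and 0.03 without those arrays. The r of Clock was -0.52 to Dbp (permutation adjusted p = 0.443; rho = -0.46) and 0.57 to Arntl (permutation adjusted p = 0.324; rho = 0.55), and these were -0.30 and 0.24 without hApoF 8 and hApoF 9. Npas2 and Cry2 had r = -0.70 (permutation adjusted p = 0.084; rho = -0.54), and -0.46 without GFP 2 and hApoF 10.

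The spread of several of these genes within a group was large for the array. The within-group SD of Ciart (0.38) exceeded that of 97.2% of all genes and that of Arntl (0.36) exceeded 96.6%, with Nfil3 above 81.6%, Per1 above 78.5% and Dbp above 75.8%, but Cry1 above only 41.4% and Cry2 above 41.2%. In 8 of the 9 genes, all but Npas2, the SD was larger in hApoF than in GFP livers, against 56.0% of all genes. It was 3.04 times as large for Per1, a ratio reached by 3.20% of all genes, 2.31 times for Ciart (8.19%) and 2.28 times for Clock. A ratio above 2 was found for 3 of the 9 genes and for 12.8% of all genes. Several of these genes varied together over the same arrays, so they do not count as separate instances. The difference in spread was not tested.

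Against the 22179 other genes on the array, Dbp had an r of at least 0.75 in size with 4 of the 8 other clock genes and with 1.38% of all genes. For Arntl these numbers were 2 of 8 and 1.44%, for Ciart 3 of 8 and 1.29%, and for Clock 0 of 8 and 1.24%. Among genes brighter than the median, those most like Dbp over the 12 arrays, again with group means removed, were Enox2 (r = 0.90), Cyp2c23, a cytochrome P450 of arachidonic acid metabolism (0.90), Mtpap, the mitochondrial poly(A) polymerase (0.88), and Derl2 (0.87). Those most like Arntl were Nagpa (0.93), Akt1s1 (0.91), Dtx2 (0.89) and Zfpm1 (0.88), and those most like Clock were Unc119b (0.91), the ubiquitin ligase gene Huwe1 (0.90), Fam168a (0.90) and Parg (0.90). They are the extremes of 10570 ranked genes and carry no test.

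The other genes of the core loops showed no change that passed. Of 12 listed, 11 were measured, 0 rose and 0 fell, beside the 6.91% called among all genes by limma. An unadjusted p under 0.05 was found for 3 of the 11, beside 21.3% of all genes. The median log2 change of the 11 was -0.0043. Rora, the activator at ROR elements, differed by 0.20 (limma adjusted p = 0.113) and Timeless, better known for its part at the replication fork in mammals, by -0.24 (limma adjusted p = 0.171). Nr1d1, which encodes the repressor REV-ERB alpha, was 8.38 ± 0.11 (SD, n = 6) in GFP and 8.17 ± 0.32 (n = 6) in hApoF livers (difference -0.21, 95% interval -0.47 to 0.06, limma adjusted p = 0.363). Nr1d2, its paralog, differed by 0.07 (95% interval -0.12 to 0.25), Per3 by 0.04 (-0.28 to 0.37), Hlf by -0.15 (-0.32 to 0.01) and Tef by 0.12 (-0.09 to 0.33), the last pair encoding relatives of DBP.

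The relation of these 11 genes to Dbp and Arntl was examined after the members' correlations had been seen, as 22 relations adjusted together. Timeless ran with Arntl by rho (0.87, permutation p = 0.00045, adjusted p = 0.0099) and missed the threshold by r (0.74, permutation p = 0.0039, adjusted p = 0.072; 0.69 without hApoF 8 and hApoF 12). Hlf with Dbp had r = 0.74 and was 0.72 without GFP 5 and hApoF 8, and Bhlhe41, a repressor at E-boxes, had r = 0.74, but 0.36 without them (both permutation adjusted p = 0.07 for r; rho adjusted p = 0.223 and 0.355). Per3 had r = -0.76 with Arntl (permutation adjusted p = 0.072; rho = -0.63, adjusted p = 0.228) and -0.56 without hApoF 8 and hApoF 12. The r of Nr1d1 was -0.11 with Dbp and 0.02 with Arntl (permutation adjusted p = 0.844 and 0.965; rho = 0.01 and -0.07), and without the same arrays 0.11 and -0.17.

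Proteins that modify the clock and the genes that follow it were read from 4 further lists. Of 17 measured kinase, phosphatase and ubiquitin ligase genes 0 rose and 1 fell, Ppp1ca, a catalytic subunit of protein phosphatase 1 (log2 change -0.48, SE 0.08, limma adjusted p = 0.0013). Without GFP 4, 3 genes of this list were lower. Of 12 corepressors and coactivators 0 rose and 2 fell, and 1 was higher without hApoF 11. Among all genes 2.11% were higher and 4.8% lower. These were Ezh2, a histone methyltransferase abundant in dividing cells, by 0.85 (SE 0.10, limma adjusted p = 9.7e-05) and Hdac3, the deacetylase recruited by REV-ERB proteins, by 0.33 (SE 0.07, limma adjusted p = 0.014). The unadjusted p was under 0.05 for 5 genes of each list, beside 21.3% of all genes, and the list medians were 0.02 and -0.07, beside the 0.03 of all genes.

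In the list of genes known as rhythmic in liver, 26 were measured, of which 3 were higher, 2 lower and 21 not called, with a median of 0.02, beside 2.11% higher and 4.8% lower among all genes. The unadjusted p was under 0.05 for 8 of the 26, beside 21.3% of all genes. Nr1i3, the xenobiotic receptor CAR, a target of the DBP family, rose by 0.72 (SE 0.08, limma adjusted p = 5.3e-05), and Alas1, which starts haem synthesis, by 0.48 (SE 0.09, limma adjusted p = 0.0029). Wee1, a kinase that holds back mitosis and a CLOCK-BMAL1 target, fell by 0.71 (SE 0.18, limma adjusted p = 0.025), a call lost in 5 of 12 omissions. Klf10, a transcription factor induced by TGF beta, fell by 0.57 (limma adjusted p = 0.035), lost in 9 of 12 omissions. Upp2, a liver uridine phosphorylase, was higher by 0.38 (limma adjusted p = 0.045), lost in 8 of 12. The count of lower genes was 0 without GFP 2, GFP 3, hApoF 7 or hApoF 11, 3 without hApoF 9, 2 without GFP 4 or hApoF 12, and 1 without any other single array, while that of higher genes lay between 2 and 4.

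Genes that follow temperature, glucocorticoid or feeding cues changed in part. Of these, 6 genes rose and 1 fell among 25 on the array, with a median of 0.09, beside 2.11% higher and 4.8% lower among all genes. The unadjusted p was under 0.05 for 12 of the 25, beside 21.3% of all genes. Pck1, the gluconeogenic enzyme, rose by 0.44 (SE 0.08, limma adjusted p = 0.0020), Sik1, a kinase that limits resetting of the clock, by 0.68 (SE 0.16, limma adjusted p = 0.019) and Igfbp1, an insulin-repressed binding protein, by 1.19 (limma adjusted p = 0.023; lost in 5 of 12 omissions). Hsp90aa1, a chaperone with a daily rhythm that follows body temperature, fell by 0.47 (SE 0.09, limma adjusted p = 0.0057), a call kept in all 12 omissions, as were those of Pck1 and Sik1. The immediate early genes Fos, higher by 1.61 (limma adjusted p = 0.041), and Junb, higher by 0.72 (limma adjusted p = 0.036), each lost the call in 9 of 12 omissions. Mt1, a metallothionein, was higher by 0.50 (limma adjusted p = 0.035), lost in 10 of 12. The count of higher genes, 6 with all arrays, changed with each single array left out. It was 2 without GFP 1, GFP 2, GFP 6, hApoF 9 or hApoF 12, 3 without GFP 3, hApoF 7 or hApoF 11, 4 without hApoF 8, 7 without GFP 4 or hApoF 10, and 9 without GFP 5.

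The tissue label and other cell types were checked with marker genes. The mean log2 level of 8 hepatocyte markers was 12.57 to 12.66 on GFP and 12.67 to 12.71 on hApoF arrays. These ranges did not overlap, with a difference of 0.07, which was not tested. Of the 8 markers 0 passed limma's adjusted test, with 3 at an unadjusted p under 0.05, beside 21.3% of all genes. Of 10 endothelial markers 3 were higher (list mean 8.20 to 8.68 and 8.52 to 8.90), of 10 macrophage markers 2 (6.77 to 7.84 and 7.28 to 8.10), of 10 stellate cell markers 3 (6.95 to 7.32 and 7.16 to 7.48) and of 8 neutrophil and monocyte markers 2 (4.67 to 4.89 and 4.66 to 5.27), beside 2.11% of all genes. An unadjusted p under 0.05 was found for 8 endothelial, 3 macrophage, 6 stellate cell and 3 neutrophil and monocyte markers, beside 21.3% of all genes. Without GFP 4, 7 endothelial markers were higher. The macrophage count was 1 without GFP 1, GFP 2, GFP 3, hApoF 7, hApoF 9, hApoF 11 or hApoF 12. The stellate cell count was 0 without GFP 1, GFP 2, GFP 3, GFP 6, hApoF 9 or hApoF 12 and 1 without hApoF 7, hApoF 8 or hApoF 10. The neutrophil and monocyte count was 2 without GFP 4, hApoF 9 or hApoF 12 and 1 without any other single array. Of 6 bile duct markers 0 were higher and 1 lower, beside 4.8% of all genes. An unadjusted p under 0.05 was reached by 4, in both directions, beside 21.3% of all genes. The 1 that passed the adjusted test was Krt23, a keratin, which fell by 1.12 (SE 0.14, limma adjusted p = 0.00014). The mean of the bile duct list was 4.70 to 4.93 and 4.62 to 4.86, a difference of -0.12, while the median change of its members was 0.07. It had 2 lower members without hApoF 7 or hApoF 11, and 1 higher without GFP 5 or hApoF 10. Below the median level of all genes lay 5 bile duct, 8 lymphocyte and 5 neutrophil and monocyte markers. So did 2 red cell precursor, 4 pancreatic acinar and adrenal and 1 stellate cell marker, and 0 hepatocyte, macrophage or endothelial markers. RMA compresses differences of such dim probe sets, which limits these counts. Among 9 lymphocyte, 2 red cell precursor and 6 pancreatic acinar and adrenal markers 0 passed limma's adjusted test. In the same order, 2, 0 and 1 had an unadjusted p under 0.05, beside 21.3% of all genes. With 1 array left out, 1 lymphocyte marker was higher without GFP 4 and 1 pancreatic acinar or adrenal marker lower without hApoF 9. The levels of these lists and the array quartiles and median were set beside Dbp, Arntl and Clock as deviations from the group means over the 12 arrays, in 36 relations, of which 0 passed the adjustment and 3 had an unadjusted permutation p of r under 0.05. The smallest permutation adjusted p was 0.247, for Clock with the pancreatic acinar and adrenal list (r = -0.71, unadjusted permutation p = 0.0069, rho = -0.61, and r = -0.40 without hApoF 8 and hApoF 9). With the hepatocyte list Clock had r = -0.49 (unadjusted permutation p = 0.022, adjusted p = 0.268, rho = -0.45, and r = -0.67 without the same arrays). With the neutrophil and monocyte list it had r = 0.61 (permutation adjusted p = 0.427, rho = 0.57, and 0.54 without them), and with the upper quartile of the array r = 0.51 (permutation adjusted p = 0.268, rho = 0.72, and 0.68 without them). Dbp had r = -0.67 with the neutrophil and monocyte list (permutation adjusted p = 0.397, rho = -0.71, and -0.69 without GFP 5 and hApoF 8), and Arntl r = 0.59 (permutation adjusted p = 0.414, rho = 0.64, and 0.56 without hApoF 8 and hApoF 12). The part of these cell types and array properties in the levels of the clock genes was not tested.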

How the data were processed

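The deposited table holds log2 values for 35145 probe sets on 12 arrays. Per the submitters' processing notes they were made with oligo by RMA, which corrects background, normalizes quantiles and summarises probes by median polish. The sources used here give no version and no genome build. RMA compresses differences of dim probe sets. The platform annotation gave 1 gene for 23521 probe sets, and each of 22180 genes was taken from its brightest such probe set. The groups were compared with limma 3.58.1 in R 4.3.3 (lmFit and eBayes, no covariates), with Benjamini-Hochberg adjustment over the 22180 genes and a threshold of 0.05. No filter on dim genes was applied. Single genes were also tested by exact permutation. Correlations, motif searches and plots used Python 3.11.15, numpy 2.4.6, scipy 1.17.1 and matplotlib 3.10.9. The fit was tested on simulated data with known answers, 6 against 6 arrays. It recovered 32 of 50 log2 changes of 0.5 (64%) and 50 of 50 changes of 1, with 13 false calls among 22180 genes. Changes under 0.5, such as those of Clock, Ciart and Nfil3, were not simulated. The members and lists were chosen with earlier results of these data known. Genes named besides the 9 were up to 4 called genes with the lowest p per list, or the lowest 2 where none was called, and the 4 most alike Clock, Arntl and Dbp. Upp2, Fos, Junb and Mt1 lie outside this rule and were named as the remaining called genes of their lists. Nr1d1, Nr1d2, Per3, Hlf, Tef, Rorb and Bhlhe41 were named after their values were seen. Alternatives changed the scaling, moderation, weights, probe sets, filter and arrays. The number of arrays limits the precision.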

Additional observations from a re-analysis of the deposited data

Results flagged for a closer look

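Npas2 on array hApoF 10 was at 4.66, apart from the other 5 hApoF arrays, of which the nearest was at 4.94. Its gap was 0.655 of the group's range, above Dixon's 95% critical value for 6 samples. Of 18 sets of 6 values tested (9 genes in 2 groups) this was the single one, and chance gives about 1 in 20.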

How the results depend on the processing

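None of the 9 clock genes changed direction under any alternative in which it was tested (Npas2 was not among the brighter genes). Leaving out 1 array moved the number of clock genes called between 0 and 1, that of all genes called between 1015 and 1988 (1533 with all arrays; 1019 without GFP 2, 1015 without GFP 3, 1021 without GFP 6), and that of correlated pairs between 2 and 7. Without GFP 4 and hApoF 12 together, 3 pairs of clock genes were correlated, 1 other loop gene was higher, 3 genes of the kinase, phosphatase and ligase list were lower and 1 rhythmic output gene was lower. Clock kept its call when arrays were centred, quantile normalized again or weighted, with trend and robust settings, among brighter genes, and with all probe sets in the fit (limma adjusted p = 0.043). The 3 unequal changes passed under none of their 15 alternatives. The correlation alternatives and the counts of list members with 1 array left out were chosen after seeing the data. The cause of these shifts was not tested. No paired analysis was possible because the groups share no replicate number (1 to 6 and 7 to 12). Signal over background was not analysed here.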
